A study of Mus musculus with 12 samples.

Results

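A set of 10 genes that mark or govern blood stem and progenitor cells was followed in mouse monocytes: the transcription factors Myb, Mycn, Meis1, Hoxa9, Gata2 and Sox4 and the surface receptors Kit, Cd34, Flt3 and Cd27. They were chosen by name, and 10 of the 10 named genes were on the array, each as 1 gene-level feature, among 24479 features of which 23279 entered the tests as named genes. Inflammatory monocytes, the cells of the blood positive for CD11b and CD115 with much Ly6C on the surface, had been sorted. Their RNA was put on 12 single-colour arrays, 6 labelled TRIM33 and 6 labelled WT. Every array carries the strain label C57BL/6 LyzCre and an age of 6 to 8 weeks. LyzCre is a recombinase made under a lysozyme promoter and so mainly in myeloid cells; no source used here states if WT animals have it too. Titles call 2 arrays of either genotype a mix, with no account of what was mixed, and leave the other 4 without that word. The treatment field tells of sorting CD4 T cells instead, against the source names and the design text, whose account (monocytes) was followed.

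Progenitor cells of the marrow carry these genes while they still divide and choose between lineages. Myb keeps progenitors proliferating and is normally shut down as blood cells mature. Hoxa9 and Meis1 act as partners on DNA and maintain stem cell programmes, Gata2 is needed for stem cells and for mast cells, Mycn and its relative Myc drive growth, and Sox4 acts in early lymphoid and myeloid progenitors. Kit and Flt3 are receptor tyrosine kinases that bind stem cell factor and Flt3 ligand, Cd34 is a sialomucin of the progenitor surface, and Cd27 is a receptor of the tumour necrosis factor family found on lymphocytes and on part of the early progenitors. Monocytes arise from such progenitors and leave the marrow for the blood, and mature monocytes are known to hold little of most of these transcripts.

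The 12 arrays stood apart in 2 sets of 6, found by clustering on all features other than those of the 10 genes, without use of genotype. Each set held 3 TRIM33 and 3 WT arrays. Pairs of arrays from the same set correlated at 0.986 to 0.992, and pairs from different sets at 0.955 to 0.967. One set read high for Xist, the RNA of the silenced X chromosome of female cells, at 9.01 to 10.18 on the log2 scale against 3.36 to 3.64 in the other, and is called the Xist set here. The other read high for the Y-linked gene Eif2s3y, with 2.19 to 2.89 on Xist set arrays and 8.09 to 8.47 on its own, and is called the Y set. The 4 mixes lay in the Y set. The markers of the sort were read in both sets, but not all at equal levels. Ly6c2, which encodes the sorted Ly6C antigen, lay at 12.20 to 12.45 on Xist set arrays and at 12.27 to 12.55 on Y set arrays. Csf1r, which encodes CD115, lay wholly lower in the Xist set, at 9.73 to 10.12 against 10.88 to 11.09 in the Y set. So did Itgam, which encodes CD11b, at 9.40 to 9.88 (Xist set) against 10.41 to 10.68 (Y set). Of 14 measured monocyte identity genes 7 lay wholly lower in the Xist set, 0 wholly higher and 7 overlapped. Over all genes 6.59% lay wholly lower there. The targeted gene followed the labels on all 12 arrays, with Trim33 at 6.06 to 6.23 in TRIM33 arrays and at 6.81 to 7.05 in WT arrays, a log2 difference of -0.79 with an SE of 0.067 (Benjamini-Hochberg adjusted p = 0.000637 in limma). The position of its probes relative to any deletion is unknown here. Each value is the authors' log2 expression value for 1 array. Levels of different genes are not ranked against each other, because each gene has its own probes.

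Of the 10 genes, 3 separated the array sets and 7 did not. Myb and Cd34 were higher on every array of the Xist set than on any array of the Y set, and Flt3 was lower on every array of the Xist set. In none of the 10 did the TRIM33 arrays part from the WT arrays. Over all genes, 7.45% had every Xist set array above every Y set array and 6.59% every Xist set array below, so that parting of the sets is common on these arrays. No label assigns the array sets, and their differences are given as a description with no test. Sex-linked genes, cell cycle genes, granule genes of precursors and red cell and platelet genes all moved with the sets, and their parts cannot be told apart. The source name of every array is blood monocytes; whether the sets differ in the source of the cells or in a batch was not tested, and the set differences of Myb, Cd34 and Flt3 are to be read with that limit. Over the 8 arrays that are no mixes, 6 of the Xist set and 2 of the Y set, the difference was 4.18 for Myb, 2.08 for Cd34 and -1.20 for Flt3, each still without overlap, beside 4.14, 2.37 and -1.48 over all 12. In sorted cells taken as a bulk sample, fewer cells that hold a transcript and less transcript per cell cannot be told apart.

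**Figure D1:**
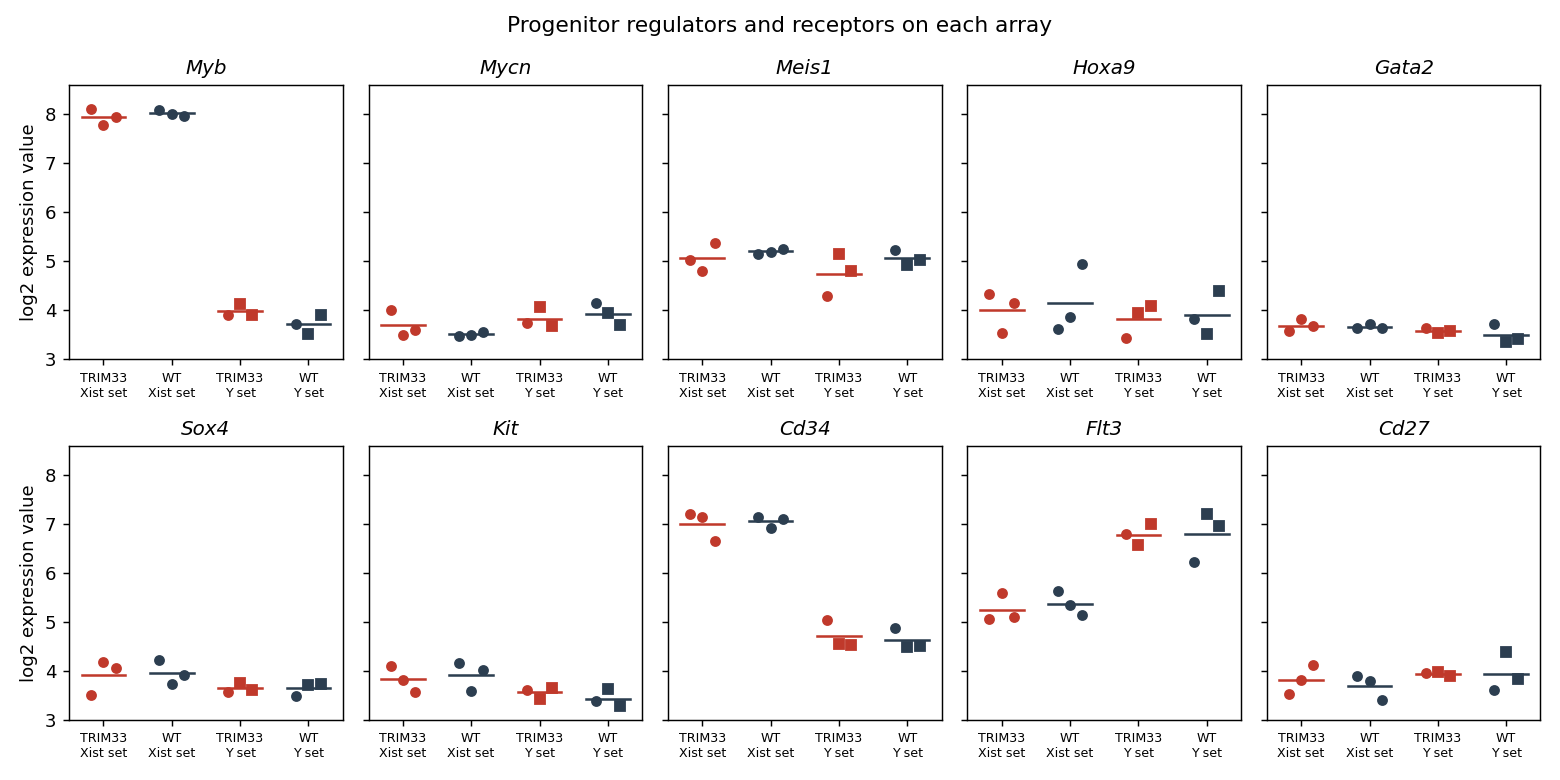
Log2 expression value (vertical axis) of each of the 10 genes on each array, in columns for TRIM33 and WT arrays of the Xist set and of the Y set. Circles are arrays not titled as mixes, squares are mixes and bars are means of 3 arrays; Myb and Cd34 stand high in both genotypes of the Xist set, Flt3 stands high in both genotypes of the Y set, and the other 7 genes stay between 3.28 and 5.38 with overlapping sets.

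The promoters of the 3 genes that parted the sets are shown because Myb and Cd34 differed between the sets in 1 direction and Flt3 in the other. The windows run from 250 bases before to 50 bases after the start of transcription, 5′ to 3′ on the strand of the gene, from RefSeq on build GRCm38.p6. Capitals mark matches, on either strand, to words bound by known factors. In all 3 windows they mark the MYB word AACNG. In the Myb window they also mark TTTGGCG, a word of the E2F factors. For the Cd34 window the other marked word is that of the GATA factors, GATAA. For the Flt3 window it is that of MYC and its partners, CACGTG.
Myb, chr10:21160935-21161234, minus strand: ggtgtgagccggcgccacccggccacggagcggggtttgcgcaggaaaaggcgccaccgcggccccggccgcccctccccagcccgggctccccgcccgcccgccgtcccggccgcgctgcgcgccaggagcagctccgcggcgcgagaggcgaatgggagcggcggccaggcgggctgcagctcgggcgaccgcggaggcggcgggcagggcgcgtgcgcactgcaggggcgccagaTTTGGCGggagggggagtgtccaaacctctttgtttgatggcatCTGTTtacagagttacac
Cd34, chr1:194938571-194938870, plus strand: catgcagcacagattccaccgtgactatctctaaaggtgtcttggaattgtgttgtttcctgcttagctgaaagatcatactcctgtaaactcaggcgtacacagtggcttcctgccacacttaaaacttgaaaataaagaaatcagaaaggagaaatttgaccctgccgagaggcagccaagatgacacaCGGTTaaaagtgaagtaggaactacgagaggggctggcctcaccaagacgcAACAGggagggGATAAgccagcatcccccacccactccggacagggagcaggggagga
Flt3, chr5:147400440-147400739, minus strand: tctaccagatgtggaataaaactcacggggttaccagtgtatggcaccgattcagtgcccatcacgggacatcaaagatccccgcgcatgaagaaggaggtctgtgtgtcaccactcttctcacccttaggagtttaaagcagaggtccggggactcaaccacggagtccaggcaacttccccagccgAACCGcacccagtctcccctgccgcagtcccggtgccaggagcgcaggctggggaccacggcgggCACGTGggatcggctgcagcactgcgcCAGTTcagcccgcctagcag

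The windows differ in base composition, with 75.0% guanine and cytosine for Myb and 61.0% for Flt3, against a median of 52.7% over all 32851 windows of the table, which the Cd34 window does not reach. The MYB word occurred 1 time in the Myb window and 2 times each in those of Cd34 and Flt3, and 80.3% of all windows hold it. The MYC word in the Flt3 window is also a match to the E-box word CANNTG; 7.15% of all windows hold the MYC word and 72.3% the E-box word. The GATA word of the Cd34 window is held by 25.4% of all windows. The ETS word GGAAG (71.4% of all windows) was found 1 time each in the Cd34 and Flt3 windows and 0 times in the Myb window. The MEIS word TGACAG (19.2%) and the E2F word TTTCGCG (0.849%) were found in none of the 3 windows, and both in the window of Mycn. The second E2F word, TTTGGCG, was searched after the Myb window had been read. It lies 12 bases before the start of transcription of Myb, and 1.56% of all windows hold it. It was also found 2 times in the window of Mycn, whose values did not part the sets. A match is a stretch of letters, not a measured binding site.

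Myb showed the widest range of the 10 genes, 4.58 on the log2 scale. In the Xist set it read 8.10, 7.79 and 7.95 on the TRIM33 arrays and 8.09, 8.01 and 7.97 on the WT arrays. In the Y set it read 3.89, 4.12 and 3.91 on the TRIM33 arrays and 3.72, 3.52 and 3.89 on the WT arrays. All 6 Xist set arrays were high and all 6 Y set arrays low, with a gap of 3.67 between the nearest arrays, and within each set the genotypes overlapped. The mean was 7.99 ± 0.112 in the Xist set, compared with 3.84 ± 0.206 in the Y set (SD, n = 6 each), a difference of 4.14 on the log2 scale, or 17.7-fold. In the Y set Myb lay below the median of all genes of the same array on 6 of 6 arrays, where RMA values compress differences, so the fold can be understated. The 2 arrays of the Y set that are no mixes, TRIM33 replicate 1 at 3.89 and WT replicate 4 at 3.72, were as low as the 4 mixes. The difference between sets made up 99.5% of the variance of Myb over the 12 arrays, and that between genotypes 0.052%.

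Cd34 followed Myb with a smaller step. In the Xist set it read 7.21, 7.15 and 6.66 on the TRIM33 arrays and 7.14, 6.92 and 7.11 on the WT arrays, and in the Y set 5.03, 4.55 and 4.53 on the TRIM33 arrays and 4.87, 4.49 and 4.50 on the WT arrays. The sets did not overlap and the genotypes did, in each set. The mean was 7.03 ± 0.208 in the Xist set, compared with 4.66 ± 0.231 in the Y set (SD, n = 6 each), a difference of 2.37 on the log2 scale, or 5.16-fold. Within the Y set the 2 arrays not titled as mixes, at 5.03 and 4.87, lay above all 4 mixes, at 4.49 to 4.55, and the difference between the sets was smaller without the mixes. Unlike Myb, Cd34 stayed above the median of all genes of the same array on every array of both sets.

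Flt3 ran the other way. In the Xist set it read 5.06, 5.58 and 5.09 on the TRIM33 arrays and 5.63, 5.34 and 5.14 on the WT arrays, and in the Y set 6.79, 6.57 and 6.99 on the TRIM33 arrays and 6.22, 7.20 and 6.97 on the WT arrays. All 6 Xist set arrays lay below all 6 Y set arrays, with a gap of 0.59, and WT replicate 4 was the lowest of the Y set. The mean was 5.31 ± 0.252 in the Xist set, compared with 6.79 ± 0.351 in the Y set (SD, n = 6 each), a difference of -1.48 on the log2 scale, which is 2.80-fold higher in the Y set. Flt3 is carried by dendritic cells as well as by progenitors. The mean of the 11 measured dendritic and plasmacytoid dendritic cell markers was also lower in the Xist set. It lay at 4.89 to 5.19 there, compared with 5.26 to 5.74 in the Y set. Of those 11 markers 3 lay wholly lower in the Xist set, 0 wholly higher and 8 overlapped. The 3 were Tcf4, Itgax and Bst2, with differences of -0.95, -0.71 and -0.52. Cd209a differed by -1.37 with overlapping sets. The defining markers Zbtb46, Xcr1 and Siglech overlapped too, with differences of 0.029, -0.044 and -0.37. Zbtb46 lay at 3.28 to 4.06 (Xist set) and 3.56 to 3.74 (Y set). Xcr1 lay at 3.27 to 3.66 (Xist set) and 3.40 to 3.67 (Y set). Siglech lay at 3.83 to 4.64 (Xist set) and 4.32 to 4.78 (Y set). The part of these markers in the Flt3 values was not tested.

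The receptor Kit, which with Cd34 marks early myeloid progenitors, did not part the sets. It read 4.10, 3.81 and 3.57 on the TRIM33 arrays and 4.16, 3.58 and 4.02 on the WT arrays of the Xist set, against 3.61, 3.42 and 3.66 on the TRIM33 arrays and 3.38, 3.63 and 3.28 on the WT arrays of the Y set. The set means differed by 0.37 on the log2 scale, the largest difference among the 7 genes whose sets overlap, and on 0 of the 12 arrays did Kit exceed the median of all genes. Mast cells also carry Kit and Gata2. Of the mast cell and basophil markers, Fcer1a read 1.98 to 2.37 in the Xist set, compared with 1.90 to 2.23 in the Y set, and Cpa3 2.19 to 2.49 (Xist set) and 1.99 to 2.50 (Y set). Brighter ones were Il3ra, which other myeloid cells also carry, at 7.86 to 8.59 (Xist set) and 7.58 to 7.94 (Y set), Hdc at 4.25 to 4.89 (Xist set) and 3.92 to 4.69 (Y set), and Prss34 at 4.25 to 4.87 (Xist set) and 3.97 to 4.33 (Y set). Of the 12 markers 11 overlapped between the sets, and Mcpt8, a basophil protease, was higher in the Xist set, at 4.61 to 5.23 (Xist set) against 3.32 to 3.69 (Y set). The mean of the 12 was also higher in the Xist set, at 3.64 to 3.85, compared with 3.44 to 3.52 in the Y set. The part of these markers in the Kit and Gata2 values was not tested.

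Cd27 read 3.53, 3.82 and 4.12 on the TRIM33 arrays and 3.90, 3.79 and 3.41 on the WT arrays of the Xist set, and 3.96, 3.97 and 3.88 on the TRIM33 arrays and 3.60, 4.38 and 3.84 on the WT arrays of the Y set. The sets and the genotypes overlapped, and a single array, WT replicate 5 at 4.38, lay above the median of all genes. Cd27 is also a receptor of T and natural killer cells. The mean of 11 T cell markers was 3.53 to 3.78 in the Xist set, compared with 4.05 to 4.72 in the Y set. Of the 11, 5 lay wholly lower in the Xist set, 0 wholly higher and 6 overlapped, with differences between -2.25 for Cd2 and 0.48 for Thy1, -2.08 for Trac, -0.12 for Cd4 and 0.023 for Zap70. The difference of Cd27 was -0.18, and the part of T cell transcripts in it was not tested.

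Among the transcription factors other than Myb, none parted the sets. Gata2 read 3.56, 3.82 and 3.66 on the TRIM33 arrays and 3.63, 3.72 and 3.64 on the WT arrays of the Xist set, and 3.63, 3.53 and 3.56 on the TRIM33 arrays and 3.72, 3.34 and 3.40 on the WT arrays of the Y set. It was the flattest of the 10 genes, with a range of 0.47 over the 12 arrays and no array above the median of all genes. Mycn read 3.48 to 4.01 in the Xist set, compared with 3.67 to 4.14 in the Y set, with means that differed by -0.27, the opposite sign to Myb. Mycn too stayed below the median of all genes on all 12 arrays.

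Hoxa9 and Meis1, the partner pair, varied mostly between single arrays within the sets and genotypes, Hoxa9 more so than Meis1. Hoxa9 read 4.33, 3.53 and 4.15 on the TRIM33 arrays and 3.61, 3.86 and 4.95 on the WT arrays of the Xist set, and 3.42, 3.93 and 4.08 on the TRIM33 arrays and 3.82, 3.50 and 4.38 on the WT arrays of the Y set. WT replicate 3, at 4.95, was the highest, and 91.9% of the variance of Hoxa9 lay neither between sets nor between genotypes. Meis1 lay above the median of all genes on all 12 arrays, at 5.03, 4.79 and 5.38 on the TRIM33 arrays and 5.14, 5.19 and 5.26 on the WT arrays of the Xist set, and 4.30, 5.15 and 4.79 on the TRIM33 arrays and 5.24, 4.93 and 5.03 on the WT arrays of the Y set. TRIM33 replicate 1, at 4.30, was its lowest array, and the set means differed by 0.23. Of the variance of Meis1, 16.9% lay between sets, 16.2% between genotypes and 66.9% in neither. Sox4 read 3.51 to 4.22 in the Xist set, compared with 3.49 to 3.76 in the Y set, with means 0.29 apart and 5 of 6 Xist set arrays below the median of all genes.

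The comparison of genotypes asked whether targeting Trim33 in myeloid cells shifted these progenitor genes. None passed the test. Over all named genes 5 of 23279, or 0.0215%, passed limma without a block (Trim33, Stfa1, A930005H10Rik, Apcdd1 and Cep83), and 0 of the 10 did, with 0 at an unadjusted p under 0.05. With a block for the array set, 9 genes, or 0.0387%, passed over the table and again 0 of the 10, with 0 at an unadjusted p under 0.05. At that unadjusted threshold stood 715 of all 23279 genes without the block and 1229 with it. Over all genes 0.198% had no overlap between the 6 TRIM33 and the 6 WT arrays, and 0 of the 10 were among them. The median log2 difference of the 10 genes was 0.019, with 6 above 0 and 4 below, beside a median of -0.014 over all genes.

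The interval of each difference shows how far these arrays bound it. Myb averaged 5.96 ± 2.18 in TRIM33 arrays and 5.87 ± 2.37 in WT arrays (SD, n = 6 each), a difference of 0.095 with a 95% interval of -2.41 to 2.59 without the block. With the block, which takes the step between the sets out of the spread, the interval was -0.12 to 0.31 (limma adjusted p = 0.964, against 1 for genotype alone). Cd34 averaged 5.85 ± 1.29 in TRIM33 arrays and 5.84 ± 1.34 in WT arrays (SD, n = 6 each) and differed by 0.016 with an interval of -1.43 to 1.46, or -0.25 to 0.28 with the block. Flt3 averaged 6.01 ± 0.874 in TRIM33 arrays and 6.08 ± 0.860 in WT arrays (SD, n = 6 each) and differed by -0.069, with an interval of -1.03 to 0.89, or -0.41 to 0.27 with the block. For these 3 genes a genotype difference as large as their difference between the sets lies outside the blocked interval.

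Meis1 had the largest difference of the 10 in size, with a mean of 4.91 ± 0.373 in TRIM33 arrays and 5.13 ± 0.130 in WT arrays (SD, n = 6 each). The difference of -0.22 (SE 0.153) had an interval of -0.55 to 0.11, or -0.52 to 0.069 with the block, and did not pass (limma adjusted p = 1 and 0.941). Without TRIM33 replicate 1, its lowest array, the difference was -0.10. Hoxa9 averaged 3.91 ± 0.359 in TRIM33 arrays and 4.02 ± 0.549 in WT arrays (SD, n = 6 each) and differed by -0.11, with the widest blocked interval of the 10, -0.60 to 0.37. The TRIM33 minus WT difference was 0.022 for Kit, 0.051 for Gata2, -0.023 for Sox4, 0.038 for Mycn and 0.061 for Cd27. Their blocked intervals all lay between -0.28 and 0.36. For the dim genes RMA values compress any difference, so these bounds hold for the array values and not for transcript amounts.

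**Figure D2:**
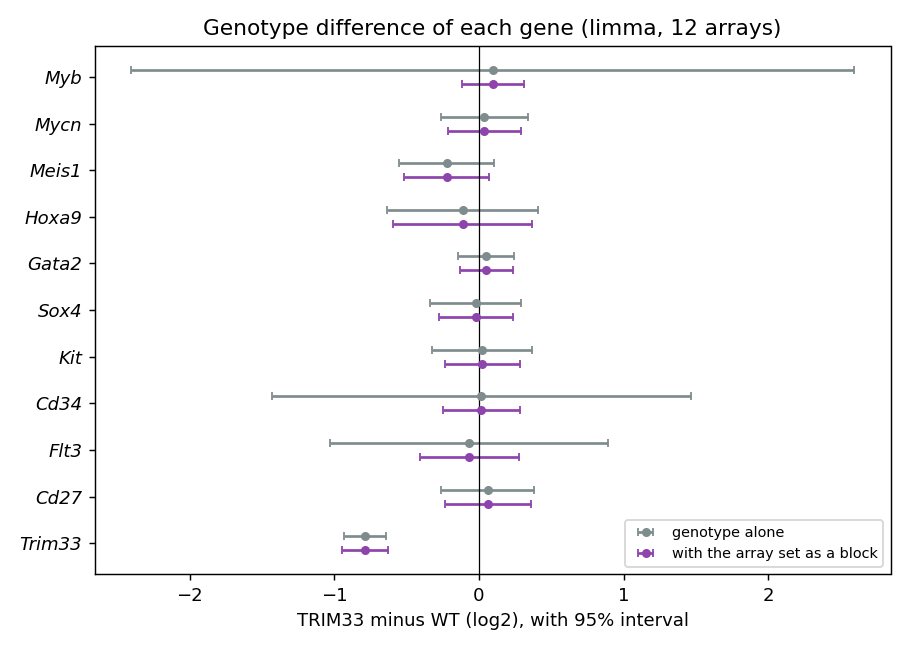
TRIM33 minus WT difference on the log2 scale (horizontal axis) of the 10 genes and of Trim33, with 95% intervals from limma on 12 arrays. Grey marks genotype alone and purple genotype with a block for the array set; the intervals of all 10 genes include 0 in both fits, those of Myb, Cd34 and Flt3 narrow with the block, and that of Trim33 lies at -0.79 away from 0.

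Whether genotype acted differently in the 2 sets was asked with an interaction of genotype and set. It passed for 1 gene of the table, or 0.0043%, the stefin Stfa2l1, and for 0 of the 10. Of all 23279 genes 981 had an unadjusted p under 0.05, and 0 of the 10 did. The smallest p was that of Myb, whose TRIM33 minus WT difference was -0.076 in the Xist set and 0.27 in the Y set, an interaction of -0.34 (95% interval -0.74 to 0.058, limma adjusted p = 0.996). In the Y set the highest TRIM33 array for Myb was replicate 2, at 4.12. It also read highest there for the cell cycle genes, with a mean of 5.64, the other 5 Y set arrays lying at 4.68 to 5.03. Among those 5, WT replicate 5 had the highest cell cycle mean, 5.03, and the lowest Myb value, 3.52. TRIM33 replicate 1 had the lowest cell cycle mean, 4.68, and read 3.89 for Myb. The part of the cell cycle genes in the Myb values was not tested.

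The cell cycle list moved with Myb and Cd34. Its 18 measured genes had a mean of 9.04 to 9.23 in the Xist set, compared with 4.68 to 5.64 in the Y set, and 17 of 18 lay wholly higher in the Xist set, Top2a by 6.30, Cdk1 by 6.27, Ccna2 by 6.18 and Bub1 by 5.13 on the log2 scale. The granule proteases and other genes of early myeloid precursors moved too, with a list mean of 9.05 to 9.42 (Xist set) against 6.32 to 6.82 (Y set). Of 13 genes 9 lay wholly higher in the Xist set, 1 wholly lower and 3 overlapped. Among the higher ones was the myeloperoxidase gene Mpo, at 10.91 to 11.55 (Xist set) against 4.74 to 5.15 (Y set). The elastase gene Elane was higher by 6.05, the cathepsin G gene Ctsg by 5.45 and Ms4a3 by 4.75. The lower one was Srgn, at 10.71 to 10.93 (Xist set) and 11.12 to 11.68 (Y set). Mgst1, Calr and Hmgb3 overlapped, with differences of -0.22, 0.030 and 0.59. Of 6 red cell markers 3 lay wholly lower in the Xist set and 3 overlapped, with Hbb-bs, a globin gene, at 1.50 to 3.30 (Xist set) and 10.61 to 11.84 (Y set), while Klf1 differed by 0.14 and Epor by 0.033. Of 6 platelet markers 3 lay wholly lower and 3 overlapped, with Ppbp at 3.31 to 3.77 (Xist set) and 6.77 to 8.96 (Y set). Of 10 neutrophil markers 5 lay wholly higher in the Xist set, 0 wholly lower and 5 overlapped, with S100a8 higher by 2.87 and S100a9 by 2.84. These values lay beside those of Myb, Cd34 and Flt3 on the same arrays, and their part in them was not tested.

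**Figure D3:**
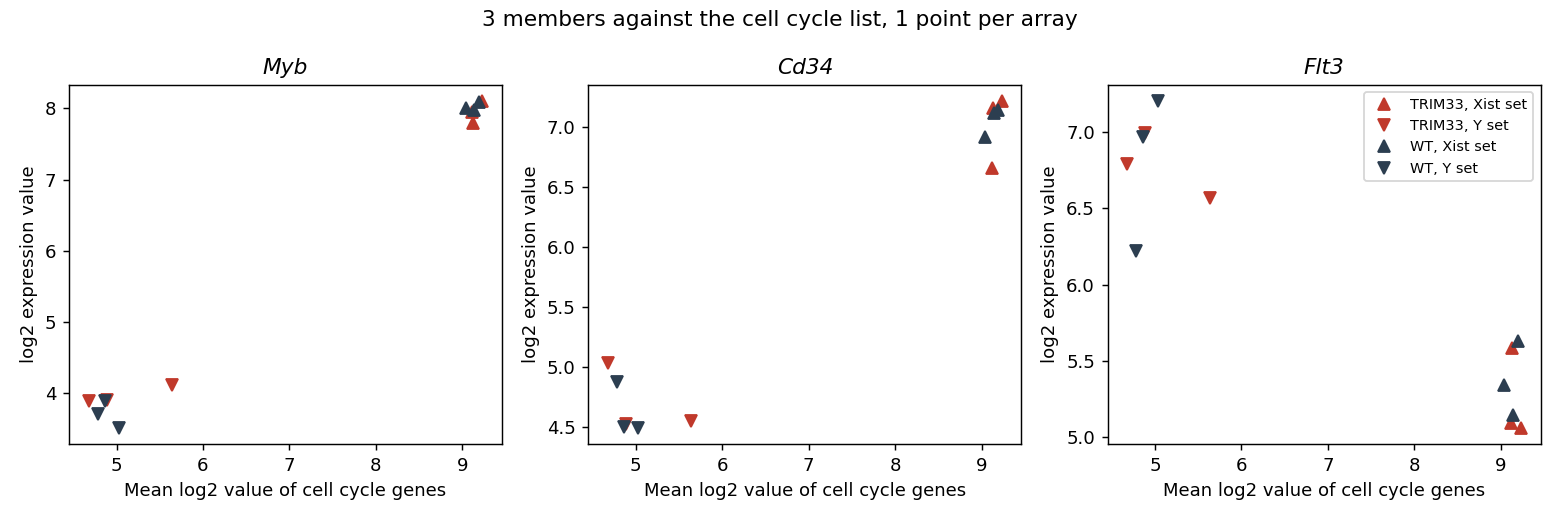
Log2 expression value (vertical axis) of Myb, Cd34 and Flt3 against the mean log2 value of the 18 cell cycle genes (horizontal axis), 1 point per array, with red for TRIM33, dark blue for WT, upward triangles for the Xist set and downward triangles for the Y set. The arrays form 2 separate groups, at cell cycle means of 9.04 to 9.23 and of 4.68 to 5.64, the Xist set and the Y set, with Myb and Cd34 high in the Xist set and Flt3 high in the Y set.

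Most other regulators of stem and progenitor cells overlapped between the sets, as did most genes of the table. Of 27 measured transcription regulators 1 lay wholly higher in the Xist set, 1 wholly lower and 25 overlapped. Over all 23279 genes these counts were 1735, 1533 and 20011. The median difference of the 27 was -0.053, beside 0.0015 over all genes. The higher one was Myc, the relative of Mycn, at 6.90 to 7.30 in the Xist set, compared with 5.15 to 6.12 in the Y set, a difference of 1.50. The lower one was Zbtb16, a zinc finger repressor, at 4.12 to 4.74 (Xist set) and 5.46 to 6.11 (Y set). Cebpa, the factor that commits progenitors to the myeloid lineage, differed by -0.63 and Erg by 0.48, both with overlapping sets. Runx1, at 8.29 to 8.72 (Xist set) and 8.20 to 9.06 (Y set), and Lmo2, at 7.13 to 7.47 (Xist set) and 7.11 to 7.53 (Y set), overlapped as well, as did the stem cell factors Hlf, at 3.23 to 3.40 (Xist set) and 3.02 to 3.69 (Y set), and Mecom, at 3.20 to 3.56 (Xist set) and 3.26 to 3.71 (Y set).

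The other surface markers that parted the sets went the way of Flt3. Of 16 measured ones 0 lay wholly higher in the Xist set, 5 wholly lower and 11 overlapped. Over all genes 7.45% lay wholly higher there and 6.59% wholly lower. The median difference of the 16 was -0.11. Cd244a, a receptor of the SLAM family, differed by -2.55 and Csf3r, the receptor for granulocyte colony-stimulating factor, by -1.02. Il7r differed by -0.65, Cd93 by -0.39 and Fcgr3 by -0.25. The largest difference above 0 was that of Cd9, 0.18, with overlapping sets. Among those that overlapped were Slamf1, at 2.73 to 3.16 in the Xist set, compared with 2.83 to 3.68 in the Y set, and Esam, at 3.05 to 3.44 (Xist set) and 2.88 to 3.20 (Y set).

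Ligands, partners and relatives of the 10 genes split in both directions. Of 25 measured, 4 lay wholly higher in the Xist set, 5 wholly lower and 16 overlapped, beside 7.45% wholly higher and 6.59% wholly lower over all genes. The relatives of Myb lay higher in the Xist set as Myb did, Mybl2 by 2.16 and Mybl1 by 1.88, and so did Cdk6, a kinase of the early cell cycle, by 0.92. Dusp6, a phosphatase induced by growth factor signalling, lay lower in the Xist set, at 7.97 to 8.61 (Xist set) against 9.98 to 10.95 (Y set). The ligand genes stood at 2.29 to 2.69 (Xist set) and 2.39 to 2.73 (Y set) for Kitl, at 7.07 to 7.65 (Xist set) and 7.70 to 8.30 (Y set) for Flt3l, which thus parted the sets in the same direction as its receptor, and at 2.25 to 2.37 (Xist set) and 1.85 to 2.30 (Y set) for Cd70, the ligand of Cd27. Siva1, which binds Cd27, lay wholly higher in the Xist set, by 0.70, and the adaptors Sh2b3 and Cbl, which restrain receptor signalling, wholly lower, with differences of -0.63 and -0.46. Of the DNA partners, Pbx2 lay wholly lower in the Xist set, at 6.453 to 6.932 (Xist set) and 6.935 to 7.264 (Y set), a difference of -0.29, while Pbx3, at 5.31 to 5.89 (Xist set) and 5.46 to 6.00 (Y set), and Meis2, at 3.77 to 4.20 (Xist set) and 3.88 to 4.36 (Y set), overlapped.

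**Figure D4:**
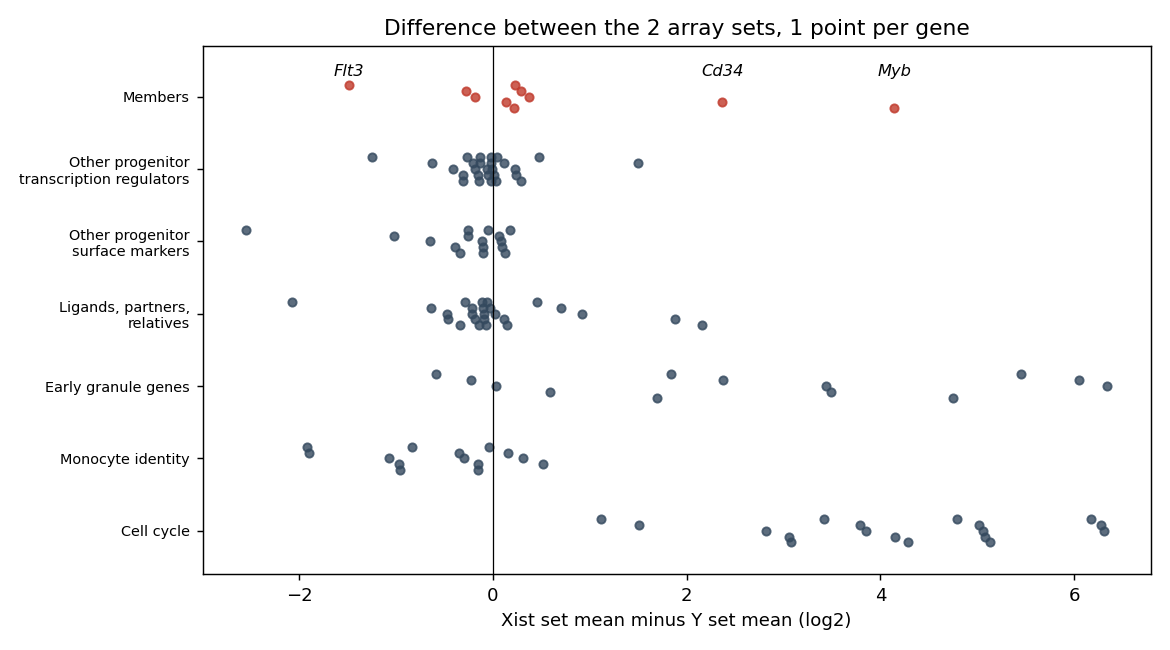
Difference between the array set means, Xist minus Y, on the log2 scale (horizontal axis), 1 point per gene, for the 10 genes in red and 6 lists of related or accompanying genes in grey. Most progenitor regulators and surface markers lie near 0, Myb at 4.14 and Cd34 at 2.37 lie among the cell cycle and early granule genes, and Flt3 lies at -1.48.

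By genotype, 0 genes of these 3 lists of related genes passed limma in either fit. The genes with the smallest p were Hoxb4, a homeobox gene, with a log2 difference of -0.37 and an SE of 0.122 (adjusted p = 1 in limma), Gata1 at 0.23 and Hhex at -0.18 among the transcription regulators, Adgrg1 at -0.16 and Robo4 at -0.14 among the surface markers, and Socs2 at 0.30, Traf5 at 0.24 and Gata3 at -0.21 among ligands and partners. At an unadjusted p under 0.05 there were 1, 0 and 1 genes of the 27, 16 and 25 without the block and 2, 0 and 1 with it. Over all 23279 genes there were 715 without the block and 1229 with it. Their median differences were -0.023, -0.023 and -0.065, beside -0.014 over all genes. Of the precursor granule genes 0 of 13 passed, with a median of 0.12, and of the cell cycle genes 0 of 18, with a median of 0.075.

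The genes whose values ran closest to those of the 10 were sought among 5314 named genes with a range of at least 1 on the log2 scale. The measure was Pearson's r over the 12 arrays, which describes the step between the sets wherever a gene has one. Closest to Myb were Ect2, needed for cell division, and Cdc20, an activator of the mitotic ubiquitin ligase, with r of 0.999 and 0.998. Closest to Cd34 were Fancd2, of DNA crosslink repair, and Prc1, a protein of the mitotic spindle, both at 0.992. Closest to Flt3 were the integrin gene Itgav at 0.978 and Sos2, a guanine nucleotide exchange factor, at 0.971. For the other 7 genes the closest r lay between 0.804 for Hoxa9 and 0.940 for Kit, whose nearest genes were Tmem119 and Il3ra, a subunit of the interleukin 3 receptor. With the set means subtracted the nearest genes were Ighv5-15 (0.835) and Prr11 (0.824) for Myb and Mt2 (0.894) and Stk40 (0.877) for Cd34. These r describe the 12 arrays, which share their set, and carry no test.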

How the data were processed

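Values are the log2 expression values deposited by the authors, 1 per gene-level feature and array. RMA and Partek were used, per the submitters' processing notes; the sources give no version of either, no chip definition, no build and no word on batch correction. RMA equalises arrays and compresses differences between dim genes. RNA (900 pg) was amplified with the NuGEN Ovation Pico V2 protocol, per the labels, which adds spread. The number of arrays limits the precision, and since no label ties arrays to animals, p-values measure the spread between arrays, which may be technical.

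Features were named through GEO's platform annotation (23281 with 1 symbol, 0 with several, 1198 with none), and symbols were checked by Entrez number in a RefSeq table of GRCm38.p6, with 0 changed. Of 2 symbols with more than 1 feature the brighter feature was kept, leaving 23279 genes. The model was limma's (version 3.58.1, functions lmFit and eBayes, run in R 4.3.3), with genotype alone as the main design and a threshold of 0.05 after Benjamini-Hochberg adjustment over all genes. The fit was tested on simulated data. Array sets came from hierarchical clustering (average linkage, distance 1 minus Pearson's r) without the 10 genes. The 2 mix numbers are shared by the genotypes. No label says that they mark a shared batch, and they were treated as a pairing only as an alternative.

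The genes, the lists (progenitor regulators, surface markers, partners, granule genes, monocyte, cell cycle, and markers of mast, T, B, natural killer and dendritic cells, neutrophils, red cells and platelets) and the tests were chosen with earlier results of these data known. Named beside the 10 genes were, per list, up to 4 genes with the smallest p and up to 4 with the largest set difference. For each of the 10 the 2 closest genes were named too. Runx1, Lmo2, Hlf, Mecom, Slamf1, Esam, Kitl, Flt3l, Cd70, Siva1, Sh2b3, Cbl, Pbx2, Pbx3 and Meis2 were named after their values were seen. So were Srgn, Calr, Fcgr3, Cd9 and the cell type markers. Means of marker lists not given above follow, for the Xist set and then the Y set. They were 3.84 to 4.09 and 4.20 to 4.88 for B cells and 4.01 to 4.32 and 4.01 to 4.30 for natural killer cells. Neutrophils gave 6.25 to 6.83 and 5.08 to 6.11, red cells 3.40 to 3.99 and 5.86 to 6.73 and platelets 4.06 to 4.23 and 5.03 to 6.40. Monocyte identity, where Lyz1 passed for genotype with the block, gave 10.11 to 10.47 and 10.65 to 11.09. Promoter windows of all 10 genes were found in the RefSeq table. Plots used matplotlib 3.10.9 (Python 3.11.15).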

Additional observations from a re-analysis of the deposited data

How the results depend on the processing

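None of the 10 genes passed limma for genotype under the main fit or any of the 39 alternatives (15 other choices and 24 fits that left out 1 array, with and without the array set as a block). Of 384 differences of single genes under alternatives, 316 kept their sign and 68 turned it, all without passing. The sign turned in the Xist set alone for Myb (-0.076), Kit (-0.091) and Cd34 (-0.049), and in the Y set alone for Mycn (-0.10) and Sox4 (0.00050). It turned over the arrays not titled as mixes for Myb (-0.013), Gata2 (-0.010), Kit (-0.011) and Flt3 (0.049), with array weights for Myb (-0.0012), Kit (-0.015) and Cd34 (-0.074), and in the mixes alone for Hoxa9 (0.060) and Cd27 (-0.18). Leaving out each array gave -0.38 to 0.54 for Myb, -0.048 to 0.12 for Mycn, -0.32 to -0.10 for Meis1, -0.23 to 0.073 for Hoxa9, 0.0041 to 0.099 for Gata2, -0.10 to 0.069 for Sox4, -0.058 to 0.12 for Kit, -0.26 to 0.28 for Cd34, -0.26 to 0.16 for Flt3 and -0.021 to 0.17 for Cd27. Without the block, leaving out an array leaves the genotypes unequal in the sets; with it Myb stayed between 0.033 and 0.15.

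The count of genes called over the table was 5 in the main fit, 9 with the set block, 8 in the Y set alone, 3 in the Xist set alone, 0 over the arrays not titled as mixes, 3 without moderation, and 5 to 15 when single arrays were left out (9 without TRIM33 replicate 4, or 15 with the set block). In the mixes alone it was 7 without and 10 with a replicate block on the mix number. The deviations of same-numbered mixes correlated at 0.118 over genes, and with 2 pairs this does not establish a pairing; in that paired fit 0 of the 10 genes passed, with Hoxa9 at 0.060 and Cd27 at -0.18. Alternatives for the differences between the sets were chosen after the data were seen. Across them, including quantile normalization, median centring and either genotype alone, Myb stayed between 3.97 and 4.32, Cd34 between 2.08 (arrays not titled as mixes) and 2.44, and Flt3 between -1.60 and -1.20. Of the 10 genes, 4 have a mean above the median over genes, and the filter on dim genes left the other 6 untested.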
